A study of Homo sapiens with 10 samples.

Results

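The aminoacyl-tRNA synthetases join each amino acid to the transfer RNA (tRNA) that carries it to the ribosome. This report gives the expression of 35 of their genes, 19 for cytosolic and 16 for mitochondrial enzymes, in pancreatic carcinoma cells that received KLF11 or 1 of 3 KLF11 mutants. The members were taken from a list of synthetase genes by function, although earlier results of these data were known when the list was chosen. Each member is represented by a transcript cluster that carries its symbol alone. A transcript cluster is the set of array probes assigned to a gene. The array holds 28869 clusters, of which 20961 carry a gene symbol and were tested. GARS1 and KARS1 were counted as cytosolic, although their genes also supply the mitochondrion.

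Human cells use separate sets of synthetases in the cytosol and in the mitochondrion for most amino acids, all encoded in the nucleus. The cytosolic enzymes serve general protein synthesis and many of their genes are targets of ATF4, the transcription factor that acts when amino acids run short or unfolded proteins accumulate. The mitochondrial enzymes, whose symbols end in 2, are imported and serve the few proteins encoded by mitochondrial DNA. KLF11 is a zinc finger transcription factor that binds GC-rich promoter sequence and recruits chromatin cofactors.

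Panc1, an established epithelial line from a human pancreatic carcinoma, was transduced for 48 h with adenovirus at a multiplicity of infection of 150. The virus carried the empty vector (EV), epitope-tagged wild type KLF11, or a KLF11 with a single coupling site disrupted. RNA was hybridized to Affymetrix Human Gene 1.0 ST arrays, 2 for each of the 5 conditions. The A347S substitution (KLF11-347) uncouples the proline-rich domain from WD40 proteins, Δ486 (KLF11-486) uncouples the HP1 and histone methyltransferase system, and EAPP (KLF11-EAPP) uncouples the Sin3 and histone deacetylase system. All the KLF11 constructs were overexpressed beside the endogenous gene, in 1 cell line. The methods and the extract protocol describe the arrays as technical duplicates of pooled RNA, while the sample titles number them as biological replicates. The errors and p-values below therefore measure how far arrays differ, and variation from culture to culture is not in them if the methods are right.

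The 10 arrays had medians from 6.81 to 6.87, and the arrays of a condition correlated across clusters at 0.996 to 0.997. The KLF11 cluster read 8.37 and 7.75 on the EV arrays and 8.68 to 8.88 on the other 8 arrays. With EAPP its change against EV was 0.67 ± 0.16 on the log2 scale, with a limma adjusted p of 0.282. Of 4 epithelial keratins, KRT8 and KRT18 were bright on every array, with log2 levels of 12.18 to 12.71 and 12.81 to 13.25. Both fell in the mutants A347S and Δ486, KRT8 by 0.43 and 0.33 and KRT18 by 0.25 and 0.35. KRT19 fell by 0.99, 1.51 and 1.06 with wild type KLF11, A347S and Δ486 and was at -0.44 with EAPP (unadjusted p of 0.00796 in limma), and KRT7 passed with no construct. The log2 of the summed keratin level was 14.07 and 14.15 with EV, 13.65 to 13.89 on the arrays of the first 3 constructs, and 14.02 and 14.03 with EAPP. Of 10 markers of acinar, islet, blood, endothelial and fibroblast cells, 9 were measured, and COL1A1, a fibroblast collagen with a mean of 8.28 with EV, was the one that passed. It fell by 0.34 with A347S, and its changes of -0.16 with wild type KLF11 and with Δ486 had unadjusted p of 0.0404 and 0.0409. The other 8 read at most 6.58 on every array. The log2 of the 9 summed levels was 9.18 and 9.25 with EV and 9.02 to 9.16 with the KLF11 constructs. These shifts are beside all the results that follow and their part in them was not tested. In RNA from whole cultures, fewer cells of a kind and less RNA per cell cannot be told apart.

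Changes are differences of log2 levels from EV, with the standard error (SE) of limma's moderated model over all 10 arrays. The words rise and fall are kept for genes with an adjusted p under 0.05, by Benjamini-Hochberg over all 20961 clusters. The fold threshold of 1.5, which equals 0.58 on the log2 scale, is given apart because most synthetase changes were smaller. A level is that of a gene's own probes, so levels of different genes are not compared as amounts of RNA.

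Wild type KLF11, A347S and Δ486 each moved synthetase genes in both directions, and the mitochondrial genes spread farther from EV than the cytosolic ones. With wild type KLF11, 5 of the 19 cytosolic genes passed the adjusted p (3 rose and 2 fell) and so did 4 of the 16 mitochondrial genes (2 rose and 2 fell), beside 17.3% of all clusters tested (7.56% rose and 9.75% fell). With A347S, 6 cytosolic genes (3 rose and 3 fell) and 9 mitochondrial genes (3 rose and 6 fell) passed, beside 28.4% of all clusters (11.5% rose and 16.9% fell). With Δ486, the counts were 6 cytosolic (3 rose and 3 fell) and 9 mitochondrial (3 rose and 6 fell), beside 22.4% (9.07% rose and 13.3% fell). In percentages, the cytosolic shares were 26.3%, 31.6% and 31.6%. The mitochondrial shares were 25%, 56.2% and 56.2%, so they stood above the background with the mutants A347S and Δ486. The cytosolic shares with those mutants were nearer to it. The background was not matched to the members in level or spread. Clusters tested read down to 2.14, and the members 6.61 or more. Between the 2 EV arrays the median absolute difference was 0.03 for members and 0.08 for all clusters. For the other conditions it was 0.06 to 0.09 and 0.09 to 0.11. The part of this in the shares above and in those that follow was not tested.

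The arrays of a construct lay wholly above or below those of EV for 15, 16, 15 and 12 of the cytosolic genes with wild type KLF11, A347S, Δ486 and EAPP, beside 57.6%, 63.6%, 61.7% and 39.3% of all clusters. For the mitochondrial genes the counts were 14, 15, 14 and 6. All 12 of the cytosolic genes with EAPP were on the lower side.

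The absolute changes give the same description without a threshold. For wild type KLF11, A347S and Δ486 in that order, the median absolute log2 change of the mitochondrial genes was 0.24, 0.33 and 0.31, where the median over all clusters was 0.13, 0.16 and 0.16. That of the cytosolic genes was 0.11, 0.16 and 0.13. The signed medians were small because members moved both ways. They were 0.06, 0.06 and 0.02 for the cytosolic genes and -0.13, -0.17 and -0.15 for the mitochondrial genes, against -0.02, 0.01 and 0.02 for all clusters. When the deposited values were quantile normalized again, the mitochondrial median with A347S was -0.09.

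With EAPP, 0 of the 35 genes passed the adjusted p in limma, beside 0.00477% of all clusters, which is 1 cluster. At an unadjusted p under 0.05, 9 cytosolic genes and 1 mitochondrial gene, CARS2, were below EV and 0 were above, beside 8.73% of all clusters (5.22% below EV). The methods name a t-test corrected by a Bayes approach. Here and below, the t-test of the methods is a plain one without that correction, and compares the 4 arrays alone. At an unadjusted p, 8 cytosolic and 2 mitochondrial genes passed it, beside 7.28% of all clusters. The cytosolic median with EAPP was -0.14, or -0.08 without EAPP replicate 2, and the mitochondrial median was -0.02.

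**Figure D1:**
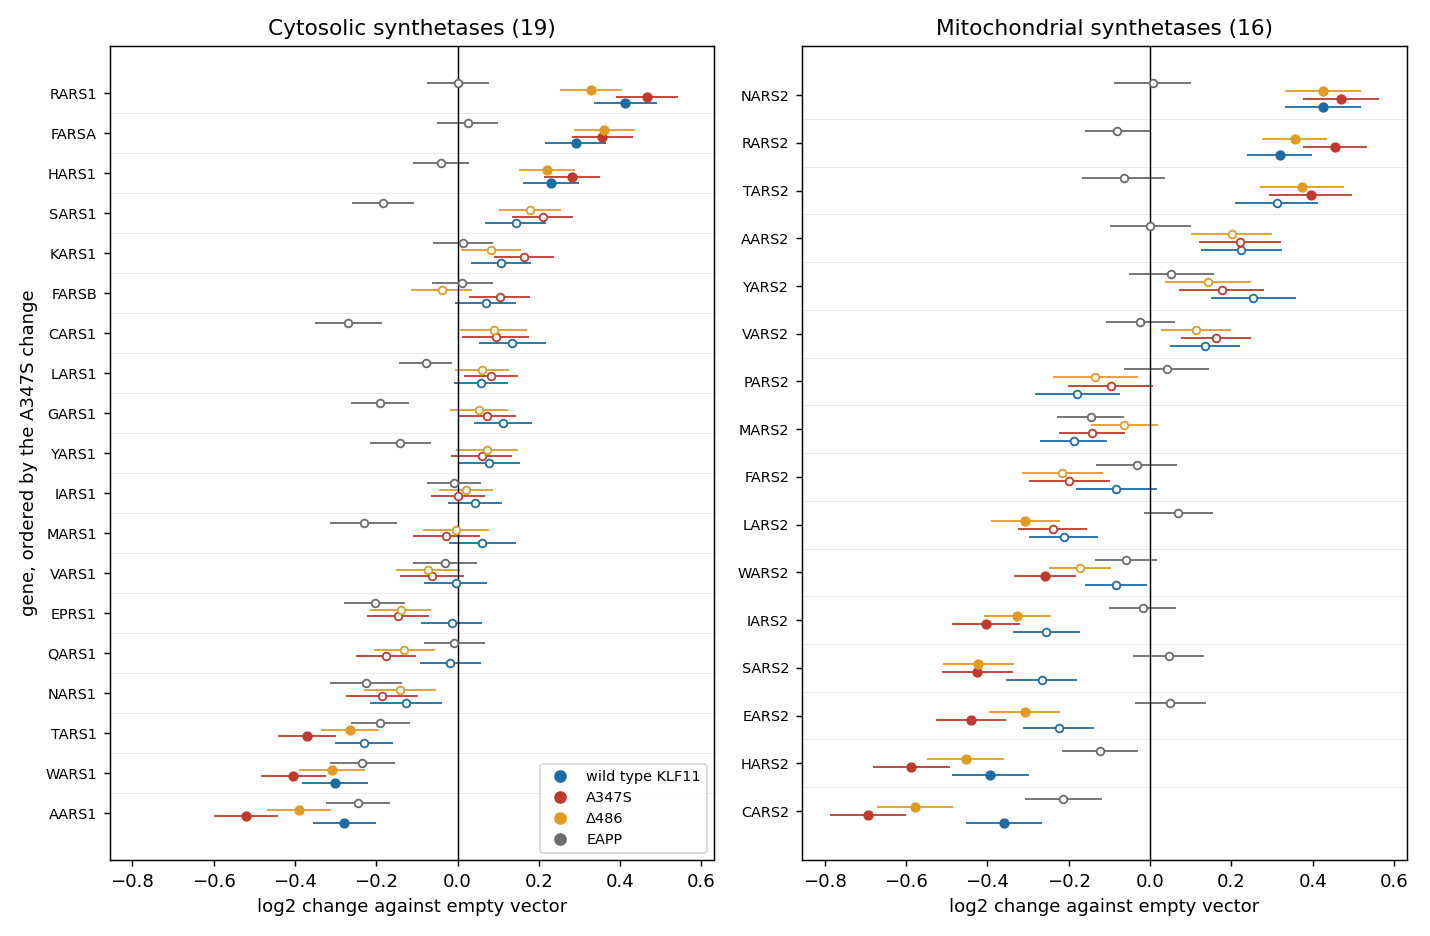
Log2 change against empty vector (x axis) of each of the 19 cytosolic genes (left) and 16 mitochondrial genes (right), ordered by the A347S change. Points are fitted changes, bars are 1 SE, and filled points passed the limma adjusted p. The 3 constructs other than EAPP lie on the same side of 0 for 17 of the 19 cytosolic and all 16 mitochondrial genes, and the EAPP points of the mitochondrial genes lie between -0.21 and 0.07.

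RARS1, FARSA and HARS1 were the cytosolic genes that rose, and each rose with wild type KLF11, A347S and Δ486. RARS1, the arginyl enzyme and a subunit of the multisynthetase complex, read 11.06 and 11.04 on the EV arrays and 11.49 and 11.43 with wild type KLF11. The A347S arrays gave 11.53 and 11.50, the Δ486 arrays 11.29 and 11.46, and the EAPP arrays 11.07 and 11.03. The 6 arrays of the first 3 constructs lay above both EV arrays, while the EAPP arrays spanned the EV values. The changes were 0.41 ± 0.08 (SE), 0.47 ± 0.08 and 0.33 ± 0.08, with limma adjusted p of 0.00581, 0.00143 and 0.0128. With EAPP the change was 0.00, with a 95% interval of -0.17 to 0.17.

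FARSA, which encodes the catalytic subunit of the phenylalanyl enzyme, read 9.96 and 9.94 with EV and between 10.21 and 10.37 with the same 3 constructs, and its arrays did not overlap with those of EV. Its changes were 0.29, 0.36 and 0.36, each with an SE of 0.08 (limma adjusted p of 0.0262, 0.00573 and 0.00749). FARSB, the other subunit of the same enzyme, did not pass with any construct, with changes of 0.07, 0.10, -0.04 and 0.01. HARS1, the histidyl enzyme, read 10.43 and 10.46 with EV and 10.63 to 10.74 with wild type KLF11, A347S and Δ486. Its changes were 0.23 ± 0.07, 0.28 ± 0.07 and 0.22 ± 0.07 (limma adjusted p of 0.0464, 0.012 and 0.0459), and it read 10.38 and 10.43 with EAPP.

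AARS1, WARS1 and TARS1 were the cytosolic genes that fell. AARS1, the alanyl enzyme, read 11.09 and 11.11 with EV and 10.88 and 10.77 with wild type KLF11. The A347S arrays gave 10.66 and 10.50, the Δ486 arrays 10.70 and 10.72, and both EAPP arrays 10.86. All 8 KLF11 arrays were below both EV arrays. With wild type KLF11, A347S and Δ486 it fell by 0.28, 0.52 and 0.39, each with an SE of 0.08 (limma adjusted p of 0.037, 0.00087 and 0.00609). With EAPP its change was -0.24, with an adjusted p of 0.405 and an unadjusted p of 0.011 in limma.

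WARS1, the tryptophanyl enzyme, whose gene is known to respond to interferon-gamma, read 9.46 and 9.47 with EV and 9.02 to 9.28 on the other 8 arrays. It fell by 0.30, 0.40 and 0.31 with wild type KLF11, A347S and Δ486, each with an SE of 0.08. Of 7 other interferon-gamma targets listed, 5 were measured by a cluster of their own (IRF1, GBP2, IDO1, PSMB9 and TAP1). Of these, 0 passed the limma adjusted p with any construct. The shares of all clusters were 17.3%, 28.4%, 22.4% and 0.00477% with wild type KLF11, A347S, Δ486 and EAPP. GBP2 and IDO1 were dim, at 3.86 to 4.56 and 3.79 to 4.24 over the arrays. In limma without adjustment, GBP2 had a p of 0.039 with wild type KLF11 and a change of 0.37. TARS1, the threonyl enzyme, fell in both mutants (by 0.37 for A347S and by 0.27 for Δ486), and with wild type KLF11 its change of -0.23 had an adjusted p of 0.0536.

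The other 13 cytosolic genes passed with no construct. With wild type KLF11, A347S and Δ486 their changes ran from -0.19 for NARS1, the asparaginyl enzyme, to 0.21 for SARS1, the seryl enzyme (limma adjusted p of 0.068), both with A347S. GARS1 and KARS1, which supply both compartments, had changes of 0.11, 0.07 and 0.05 and of 0.11, 0.16 and 0.08 with wild type KLF11, A347S and Δ486. Of the 7 synthetases of the multisynthetase complex, RARS1 passed and the other 6 did not. Of all clusters, 17.3%, 28.4% and 22.4% passed with wild type KLF11, A347S and Δ486. The only scaffold protein of that complex measured by a cluster of its own was AIMP1, with changes of 0.21, 0.18, 0.17 and 0.03 and adjusted p from 0.1 to 0.957.

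The cytosolic calls of A347S changed least when an array was left out. Without EV replicate 1 or EV replicate 2, 5 of its 6 calls were kept, and HARS1 was the one lost, with limma adjusted p of 0.0765 and 0.0534. HARS1 was also the one lost without A347S replicate 2 (0.0651). Of the 5 calls with wild type KLF11, RARS1 alone was kept without EV replicate 1, without EV replicate 2 or without wild type replicate 2, and WARS1 alone without wild type replicate 1. Of the 6 calls with Δ486, AARS1 and FARSA were kept without EV replicate 1 or Δ486 replicate 2, AARS1 alone without EV replicate 2, and AARS1 and RARS1 without Δ486 replicate 1. With a single array of another construct left out, HARS1 was the only one of these calls lost.

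**Figure D2:**
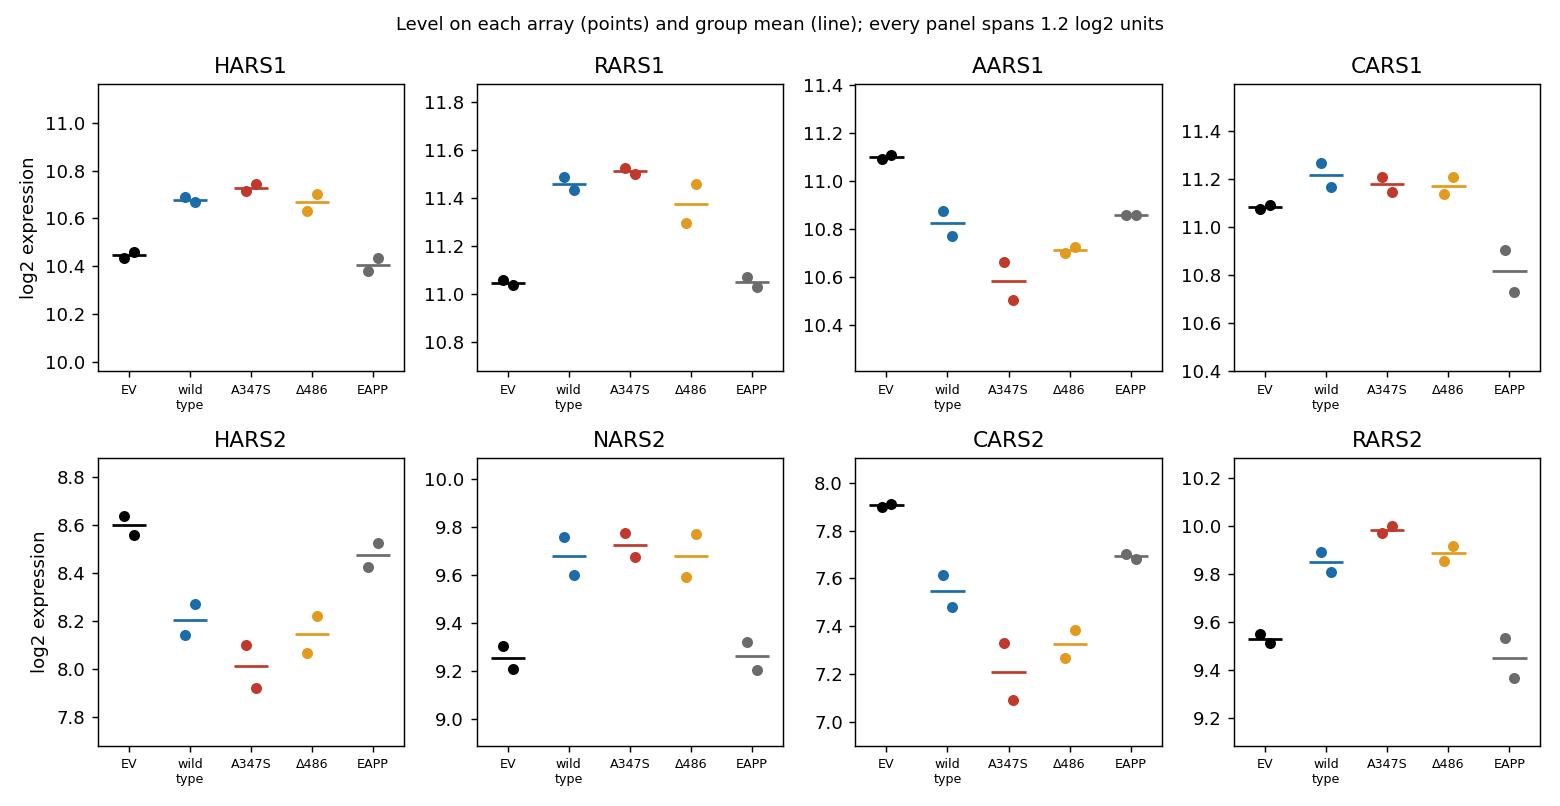
Log2 level (y axis) on each array for 4 cytosolic genes (top) and 4 mitochondrial genes (bottom) by condition. Points are single arrays, lines are means of 2 arrays, and the panels have axes of equal length. HARS1 and HARS2 move in opposite directions in the wild type, A347S and Δ486 columns, and CARS1 is below EV only in the EAPP column.

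NARS2, RARS2 and TARS2 were the mitochondrial genes that rose. NARS2, the mitochondrial asparaginyl enzyme, read 9.30 and 9.21 with EV, 9.76 and 9.60 on the wild type arrays, 9.77 and 9.68 on the A347S arrays, 9.59 and 9.77 on the Δ486 arrays, and 9.32 and 9.20 on the EAPP arrays. The arrays of the first 3 constructs were all above those of EV. The changes were 0.42, 0.47 and 0.43, each with an SE of 0.09 (limma adjusted p of 0.0129, 0.00427 and 0.0099). With EAPP the change was 0.01, with a 95% interval of -0.20 to 0.22.

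RARS2, the mitochondrial arginyl enzyme, read 9.55 and 9.51 with EV and at least 9.81 on the arrays of wild type KLF11, A347S and Δ486. It rose by 0.32 ± 0.08, 0.45 ± 0.08 and 0.36 ± 0.08 (limma adjusted p of 0.0223, 0.00203 and 0.0105) and had a change of -0.08 with EAPP. TARS2, the mitochondrial threonyl enzyme, read 7.84 and 7.81 with EV and 8.06 to 8.34 with the same 3 constructs. It rose by 0.40 with A347S and 0.37 with Δ486, while with wild type KLF11 its change of 0.31 had an adjusted p of 0.0666.

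CARS2 and HARS2 were the members with the largest falls and the only ones past both the adjusted p and the fold threshold, in each case with A347S. At that pair of thresholds the background was 3.99% with wild type KLF11, 8.98% with A347S, 5.61% with Δ486 and 0.00477% with EAPP. CARS2, the mitochondrial cysteinyl enzyme, read 7.90 and 7.91 with EV, 7.61 and 7.48 on the wild type arrays, 7.33 and 7.09 on the A347S arrays, 7.27 and 7.39 on the Δ486 arrays, and 7.70 and 7.68 on the EAPP arrays. All 8 KLF11 arrays were below both EV arrays. It fell by 0.36, 0.69 and 0.58 with wild type KLF11, A347S and Δ486, each with an SE of 0.09 (limma adjusted p of 0.0272, 0.000488 and 0.0022), and with EAPP its change of -0.21 had an unadjusted p of 0.048.

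HARS2, the mitochondrial histidyl enzyme, read 8.64 and 8.56 with EV, 8.14 and 8.27 on the wild type arrays, 8.10 and 7.92 on the A347S arrays, 8.07 and 8.22 on the Δ486 arrays, and 8.43 and 8.53 on the EAPP arrays. Again all 8 KLF11 arrays were below both EV arrays. It fell by 0.39, 0.59 and 0.45, each with an SE of 0.09 (limma adjusted p of 0.0185, 0.00123 and 0.00732). The fall with A347S lay at the fold threshold. Without A347S replicate 2 neither gene passed both thresholds, without EV replicate 1 only 1 of them did, and after quantile or cyclic loess normalization 1 of them did.

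SARS2, EARS2 and IARS2 fell with A347S and Δ486, and LARS2 and WARS2 with 1 of the mutants each. SARS2, the mitochondrial seryl enzyme, read 9.55 on both EV arrays, 9.15 and 9.09 on the A347S arrays, and 9.24 and 9.01 on the Δ486 arrays, and it fell by 0.42 with each mutant. EARS2, the glutamyl enzyme, fell by 0.44 and 0.31, and IARS2, the isoleucyl enzyme, by 0.40 and 0.33. With wild type KLF11 these 3 genes had changes of -0.27, -0.23 and -0.25 and adjusted p of 0.0649, 0.115 and 0.0629. LARS2, the leucyl enzyme, fell by 0.31 with Δ486, and WARS2, the tryptophanyl enzyme, by 0.26 with A347S. AARS2, FARS2, MARS2, PARS2, VARS2 and YARS2 passed with no construct, with changes from -0.22 to 0.25.

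For the mitochondrial genes too, the calls of A347S changed least. Without EV replicate 1, EV replicate 2 or A347S replicate 2, 7 of its 9 calls were kept, and TARS2 and WARS2 were lost. Without A347S replicate 1, 8 were kept and TARS2 was lost (limma adjusted p of 0.0796). With wild type KLF11, NARS2 alone of 4 was kept without EV replicate 1, NARS2 and HARS2 without wild type replicate 2, and 0 without EV replicate 2 or wild type replicate 1, where adjusted p were 0.0613 to 0.142. With Δ486, 4 of 9 were kept without EV replicate 1 or EV replicate 2, 3 without Δ486 replicate 2 and 7 without Δ486 replicate 1. CARS2 and SARS2 were among those kept each time with Δ486.

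The 13 amino acids with both a cytosolic and a mitochondrial member show the 2 classes side by side. The changes of the pair had opposite signs for 10 of 13 amino acids with wild type KLF11, 9 with A347S, 9 with Δ486 and 6 with EAPP. These counts take the sign alone, whether or not a member passed. They include changes near 0, such as 0.0017 for IARS1 with A347S. With A347S the widest gaps were in the histidyl pair, at 0.28 for HARS1 and -0.59 for HARS2, and the cysteinyl pair, at 0.09 for CARS1 and -0.69 for CARS2. The threonyl, alanyl and asparaginyl pairs ran the other way, with changes of -0.37 for TARS1 and 0.40 for TARS2, -0.52 for AARS1 and 0.22 for AARS2, and -0.19 for NARS1 and 0.47 for NARS2. CARS1, AARS2 and NARS1 did not pass. The arginyl pair rose together, by 0.47 and 0.45. In the tryptophanyl pair, which fell together, the changes were -0.40 and -0.26. The cytosolic enzyme was the lower of the pair for 6, 6, 7 and 10 of the 13 amino acids with the 4 constructs, so the pairs had no common direction with the first 3. The differences within pairs were not tested.

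**Figure D3:**
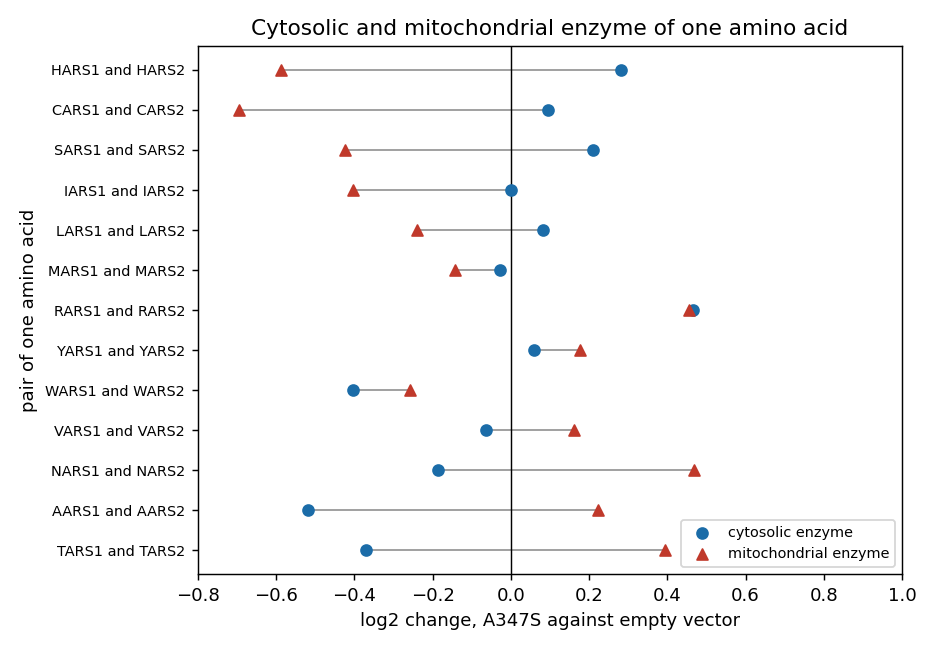
Log2 change with A347S against empty vector (x axis) of the cytosolic enzyme (circle) and the mitochondrial enzyme (triangle) of the same amino acid, joined by a line, for 13 amino acids. The histidyl, cysteinyl and seryl pairs at the top have the mitochondrial gene far lower, the threonyl and alanyl pairs at the bottom have it higher, and the arginyl points coincide.

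HARS1 and HARS2 are neighbours that are transcribed away from each other, with a short stretch between their starts. Whether that stretch has a part in their opposite changes was not tested. In GRCh38.p14, with the RefSeq annotation, HARS1 lies on the minus strand at chr5:140673905-140691370 and HARS2 on the plus strand at chr5:140691455-140699305, with 84 bases between their starts. Of the members, 8 others also start head to head with another gene within 1000 bases by the same annotation, and 6 of those neighbours were measured. The stretches between the starts are printed for the histidyl pair and for 3 members whose neighbour moved differently from them or with them, together with the 250 bases before AARS1, the cytosolic gene that fell farthest. They are written 5′ to 3′ on the strand of the named synthetase, which is the minus strand in all 5, and end at the base before its start. Capitals mark CCCCGC or CCCCAC, the cores of GC-rich and CACCC-like boxes that KLF proteins are known to bind, and TGATGNAA, the core of the element bound by ATF4 with C/EBP proteins, each on either strand.
HARS1 to HARS2, chr5:140691371-140691454: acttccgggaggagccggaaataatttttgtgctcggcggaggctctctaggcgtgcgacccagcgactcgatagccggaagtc
SARS2 to MRPS12, chr19:38930764-38930943: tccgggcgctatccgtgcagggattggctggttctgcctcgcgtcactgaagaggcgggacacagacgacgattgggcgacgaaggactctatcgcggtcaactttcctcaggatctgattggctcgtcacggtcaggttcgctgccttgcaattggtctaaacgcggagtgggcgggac
KARS1 to TERF2IP, chr16:75647666-75647772: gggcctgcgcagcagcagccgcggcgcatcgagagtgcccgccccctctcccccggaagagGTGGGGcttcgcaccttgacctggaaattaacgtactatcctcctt
RARS2 to ORC3, chr6:87589988-87590134: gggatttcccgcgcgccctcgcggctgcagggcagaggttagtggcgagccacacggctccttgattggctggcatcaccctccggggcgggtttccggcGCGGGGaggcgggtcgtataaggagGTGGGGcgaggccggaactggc
AARS1, chr16:70289507-70289756: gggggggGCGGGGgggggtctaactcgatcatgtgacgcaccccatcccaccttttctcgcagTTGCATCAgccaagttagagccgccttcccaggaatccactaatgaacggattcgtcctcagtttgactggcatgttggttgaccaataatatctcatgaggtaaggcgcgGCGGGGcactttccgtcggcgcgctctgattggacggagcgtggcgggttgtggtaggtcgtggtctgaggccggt
The stretches of the histidyl pair and of SARS2 hold 0 matches to the 3 motifs, that of KARS1 holds 1 match to CCCCAC, and that of RARS2 holds 1 to CCCCGC and 1 to CCCCAC. The AARS1 stretch holds 2 matches to CCCCGC and 1 to TGATGNAA. Of regions not printed, the 250 bases before either EARS2 start, next to UBFD1, hold 0 matches. Those before the WARS1 start next to WDR25 hold 2 to CCCCGC. Whether matches go with the direction of the neighbours was not tested.

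The head-to-head neighbours were picked by position, after the changes of the synthetases were known. MRPS12, a protein of the mitochondrial ribosome that starts 180 bases from SARS2, read 10.27 and 10.17 with EV and 10.59 to 10.76 with wild type KLF11, A347S and Δ486. It rose by 0.43, 0.49 and 0.47 (limma adjusted p of 0.00504, 0.00122 and 0.00243), while SARS2 fell by 0.42 with both mutants. TERF2IP, a telomere protein that starts 107 bases from KARS1, read 7.99 and 8.07 with EV and 8.88 to 9.18 with those 3 constructs, and it rose by 0.94, 1.12 and 1.03. KARS1 itself had changes of 0.11, 0.16 and 0.08 that did not pass.

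ORC3, a subunit of the origin recognition complex that starts 147 bases from RARS2, rose by 0.59, 0.67 and 0.46, as RARS2 did by 0.32, 0.45 and 0.36. UBFD1, next to EARS2, fell with A347S and Δ486 as EARS2 did, by 0.40 and 0.31. WDR25, next to WARS1, fell by 0.42 with wild type KLF11 and 0.36 with A347S, and DDX19B, next to AARS1, passed with no construct. With EAPP, the adjusted p of all 6 neighbours was at least 0.485. So the 2 genes of a divergent start region moved together in the RARS2, EARS2 and WARS1 regions and apart in the HARS1 and SARS2 regions, with A347S.

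RefSeq windows of the 250 bases before a start were matched by symbol for 30 of the 35 members, in 39 windows, and 35116 windows over all genes served as background. CCCCGC was found in 59.0% of the members' windows and in 39.3% of all windows. CCCCAC was found in 28.2% against 30.3%, and either of them in 66.7% against 54.1%. Among the cytosolic windows 71.4%, and among the mitochondrial windows 61.1%, held either. TGATGNAA was found in 4 windows, those of AARS1, GARS1, IARS1 and YARS2, which is 10.3% against 3.14% of all windows. These are shares of windows and not of genes. Windows can overlap, as do the windows of SARS1, of WARS2, of EARS2, and of HARS1 with HARS2, so some bases count more than once. A match describes these letters only.

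Wild type KLF11, A347S and Δ486 were next compared with each other directly, since a pass with 1 construct and not another is no difference between them. For A347S against wild type, Δ486 against wild type and A347S against Δ486, 0 of the 35 genes passed the limma adjusted p, and 0% of all clusters did. At an unadjusted p, 4 members differed between A347S and wild type (background 14.4%), 1 between Δ486 and wild type (10.5%) and 0 between A347S and Δ486 (7.43%). The t-test of the methods gave 1 member in each of these comparisons at an unadjusted p, beside 9.8%, 6.96% and 5.1% of all clusters. For 12 of the 19 cytosolic and 10 of the 16 mitochondrial genes, the A347S change was the largest of the 3 in size.

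EAPP differed from the other constructs in direct tests. Against wild type KLF11, 9 of the 35 genes passed the limma adjusted p, beside 10.8% of all clusters (4.89% higher and 5.86% lower). CARS1 was lower with EAPP by 0.40, GARS1 by 0.30, HARS1 by 0.27, RARS1 by 0.41 and SARS1 by 0.33 among the cytosolic genes. NARS2 was lower by 0.42, RARS2 by 0.40 and TARS2 by 0.38 among the mitochondrial genes, and SARS2 was higher by 0.31. The count was 0 without wild type replicate 1 or EAPP replicate 2, 4 without EAPP replicate 1, 5 without wild type replicate 2, and 6 without either EV array. When only the arrays of the 2 constructs were fitted, 1 passed.

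Against A347S, 16 genes differed with EAPP, beside 23.4% of all clusters (13.6% higher and 9.74% lower), and against Δ486, 15 did, beside 15% (8.29% higher and 6.73% lower). In both, CARS2, EARS2, HARS2, IARS2, LARS2 and SARS2 were higher with EAPP, by 0.31 to 0.49 against A347S and by 0.31 to 0.47 against Δ486. CARS1, FARSA, GARS1, HARS1, RARS1, SARS1, NARS2, RARS2 and TARS2 were lower in both. AARS1 was higher by 0.28 against A347S alone. The genes that differed from A347S numbered 16 without either EV array and 10 without EAPP replicate 2 or A347S replicate 2. Those that differed from Δ486 numbered 9 without Δ486 replicate 1, 6 without EAPP replicate 1, 3 without Δ486 replicate 2 or EAPP replicate 2, and 0 when only the arrays compared were fitted.

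The 9 cytosolic genes past the unadjusted p with EAPP were all on the list of known ATF4 targets. All 13 cytosolic genes on that list had a negative change with EAPP, from -0.27 to -0.01 with a median of -0.19. The other 6 cytosolic genes had changes from -0.04 to 0.02. On the single arrays, the median deviation of the 13 genes from the EV mean was -0.17 and -0.22 with EAPP, and between -0.03 and 0.05 on the arrays of the other 3 constructs. Those of the 6 other genes were -0.03 and 0.03 with EAPP and 0.11 to 0.23 with the other constructs. The 13 genes include those that fell with the other constructs too, AARS1, WARS1 and TARS1.

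CARS1, the cytosolic cysteinyl enzyme, had the largest change of a member with EAPP and read 11.08 and 11.09 with EV. The wild type arrays gave 11.27 and 11.17, the A347S arrays 11.21 and 11.15, the Δ486 arrays 11.14 and 11.21, and the EAPP arrays 10.90 and 10.73. The EAPP arrays alone were below EV. The change was -0.27 ± 0.08 (unadjusted p of 0.009, adjusted p of 0.392 in limma). SARS1 had changes of 0.14, 0.21 and 0.18 with the other constructs and -0.18 with EAPP, and GARS1, EPRS1, MARS1 and NARS1 were at -0.19, -0.20, -0.23 and -0.23. The 9 cytosolic genes at an unadjusted p became 3 without EV replicate 1 and 1 without EV replicate 2 or EAPP replicate 2, and CARS2 missed that threshold without any of 7 arrays.

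**Figure D4:**
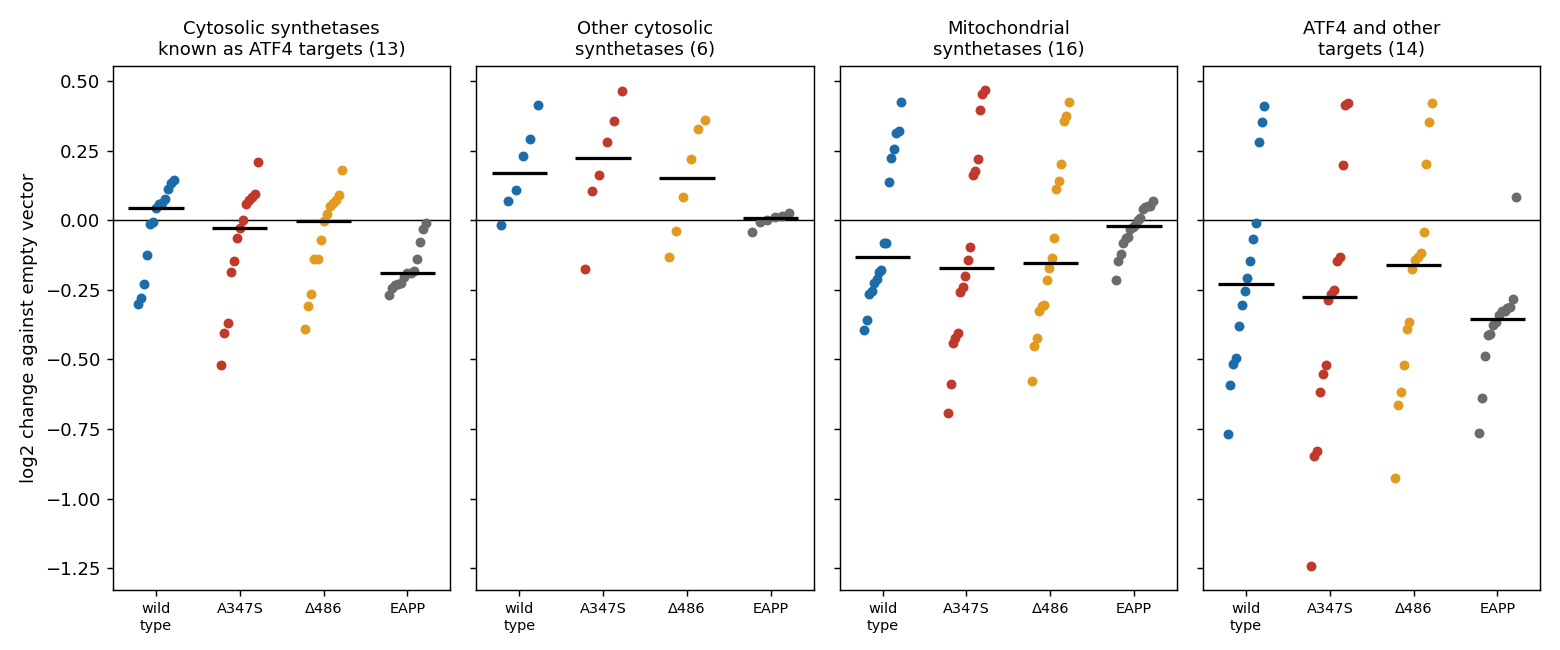
Log2 change against empty vector (y axis) by construct for the 13 cytosolic synthetases known as ATF4 targets, the 6 other cytosolic synthetases, the 16 mitochondrial synthetases, and ATF4 with 13 further genes of its pathway. Points are genes in order of value and bars are medians. In the EAPP column all genes of the first panel lie below 0, at a median of -0.19. The last panel has a median of -0.35, with SHMT2 alone above 0, at 0.08. The 2 panels between them have medians near 0.

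The ATF4 pathway outside the synthetases had a negative median change with each of the 4 constructs. Of 14 genes, ATF4 included, 5 fell and 1 rose with wild type KLF11 and again with Δ486. With A347S, 6 fell and 1 rose. Over all clusters, 9.75%, 16.9% and 13.3% fell and 7.56%, 11.5% and 9.07% rose with wild type KLF11, A347S and Δ486. With EAPP 0 passed, and 13 had a negative change with a limma unadjusted p under 0.05, beside 5.22% of all clusters below EV. The medians were -0.23, -0.28, -0.16 and -0.35, against -0.02, 0.01, 0.02 and 0.001 for all clusters. PYCR1, the last enzyme of proline synthesis, fell by 0.77, 1.24 and 0.93 and had a change of -0.34 with EAPP. SLC7A1, a cationic amino acid transporter, fell by 0.50, 0.85 and 0.62 and was at -0.41 with EAPP. ATF4 itself fell by 0.31, 0.52 and 0.37 and was at -0.32 with EAPP. SHMT2, which makes glycine in the mitochondrion, was the gene that rose, by 0.41, 0.42 and 0.42.

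TRIB3, a pseudokinase induced by ATF4, read 8.07 and 8.34 with EV and 7.44 and 7.45 with EAPP. It fell by 0.52, 0.83 and 0.66 with wild type KLF11, A347S and Δ486, and its change with EAPP was -0.77 (unadjusted p of 5.7e-05, adjusted p of 0.149 in limma). ASNS, asparagine synthetase, which is not a tRNA synthetase, read 10.59 and 10.56 with EV, 10.98 and 10.74 with wild type KLF11, and 10.28 and 10.15 with EAPP. SLC7A11, the cystine transporter, read 9.12 and 9.15 with EV, 9.65 and 9.33 with wild type KLF11, and 8.96 and 8.49 with EAPP. Like CARS1 and SARS1, ASNS and SLC7A11 were above EV on the wild type arrays and below it on the EAPP arrays. Their changes against EV were 0.28 and -0.37 for ASNS and 0.35 and -0.41 for SLC7A11, none of which passed the adjusted p.

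Listed apart from the ATF4 pathway were 5 genes for the kinases GCN2 and PERK, their substrate and its phosphatase. Of these, EIF2AK3, EIF2S1 and PPP1R15A rose with A347S, by 0.37, 0.34 and 0.42. They encode the kinase PERK, the initiation factor subunit it phosphorylates and a regulatory subunit of the phosphatase that reverses this. EIF2AK3 and PPP1R15A also rose with Δ486, by 0.49 and 0.45. Of all clusters, 11.5% rose with A347S and 9.07% with Δ486. With wild type KLF11 and with EAPP, 0 of the 5 passed in limma, and EIF2S1 with wild type had an unadjusted p of 0.025. EIF2AK4, which encodes the kinase GCN2 that senses uncharged tRNA, had changes of 0.08, -0.10, -0.05 and -0.02.

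Genes that act beside the synthetases were measured as well. GATB, a subunit of the amidotransferase that makes glutaminyl-tRNA in mitochondria, which have no glutaminyl synthetase, read 7.33 and 7.43 with EV, 7.96 and 7.98 on the wild type arrays, 8.09 and 8.20 on the A347S arrays, 7.91 and 7.99 on the Δ486 arrays, and 7.50 and 7.31 on the EAPP arrays. The 6 arrays of the first 3 constructs were all above EV. It rose by 0.59, 0.77 and 0.56 (limma adjusted p of 0.00199, 0.000195 and 0.00163), past the fold threshold with the first 2. The other subunits, QRSL1 and GATC, and MTFMT, which formylates the initiator tRNA, did not pass.

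SEPSECS and PSTK, which turn seryl-tRNA into selenocysteinyl-tRNA, both rose with the mutants A347S and Δ486, and SEPSECS also with wild type KLF11. SEPSECS read 7.16 and 7.38 with EV, 8.05 and 7.81 on the wild type arrays, 7.86 and 7.68 on the A347S arrays, and 7.64 and 7.81 on the Δ486 arrays, and it rose by 0.66, 0.50 and 0.45. Its call with wild type was lost without EV replicate 1 (limma adjusted p of 0.0536) and without wild type replicate 1 (0.0559). PSTK rose by 0.49 and 0.39. It was also above EV on the arrays of wild type KLF11 and EAPP, with changes of 0.35 (limma adjusted p of 0.0587) and 0.33 (adjusted p of 0.424 and unadjusted p of 0.0139).

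TRNT1, which adds the CCA end that every tRNA needs before it is charged, fell by 0.50, 0.57 and 0.41 with wild type KLF11, A347S and Δ486. PTRHD1, listed with the peptidyl-tRNA hydrolases, fell by 0.33, 0.63 and 0.46 and passed the fold threshold with A347S. The tRNA exporter XPOT did not pass, at -0.04, -0.20, -0.20 and -0.23. DTD2, a deacylase that proofreads D-amino acids on tRNA, rose by 0.47, 0.46 and 0.48, and DTD1 did not pass.

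VARS1 and VARS2 were each measured by 2 clusters with their symbol. Those of VARS1 held identical values and count as 1 measurement, and those of VARS2 differed by at most 0.059 on any array.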

How the data were processed

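Expression in Panc1 cells was measured on Affymetrix Human Gene 1.0 ST arrays, 2 for each of 5 conditions, grouped by the sample labels. The deposited values are log2 expression, which the authors made by background subtraction and normalization with Robust Multiarray Analysis, and the submitters' processing notes name Partek 6.6. No source used here names the genome build behind the array annotation. Precision is limited by the number of arrays.

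Gene names came from the platform annotation, and all 35 members matched a RefSeq gene number. The brightest cluster stood for a gene, and clusters without a symbol were left out. A linear model with a mean per group was fitted to all 10 arrays in limma 3.58.1 (R 4.3.3) on the 20961 clusters with a symbol, with 5 residual and 4.54 prior degrees of freedom, and p-values were adjusted by Benjamini-Hochberg over all of them. EAPP was also counted at an unadjusted p under 0.05, since the methods use no false discovery rate for it. The model was tested on simulated data with known changes, where 1.5-fold changes were recovered less often than 2-fold ones in each comparison with EV. A gene that did not pass is therefore not shown to be unchanged. Comparisons with EV share the EV arrays.

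The members and gene lists were chosen with earlier results of these data known, and the lists of ATF4 and interferon-gamma targets come from general knowledge. Members with full values are those past both thresholds, the 3 largest rises and falls per construct and class, the 3 smallest p of each class with EAPP, GARS1, KARS1, the histidyl pair, members that passed in a direct comparison of constructs, the 2 widest pairs with A347S, and partner genes past both thresholds. Promoter windows were read from RefSeq tables of GRCh38.p14 in Python 3.11.15, and figures were drawn with matplotlib 3.10.9. Alternatives covered the threshold, test, arrays fitted, scaling, dim clusters (mean log2 under 5), clusters tested, a replicate block and each array left out. With an array left out, the remaining one is assumed to vary like those of the other groups. The chromatin immunoprecipitation of the study was not analysed here.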

Additional observations from a re-analysis of the deposited data

How the results depend on the processing

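Of 39 member calls against EV, 0 changed direction under the 20 alternatives. Most of these leave the fitted change as it is. The direction could change only after new scaling or without an array of the groups compared. All 39 were kept with variance trend and robust moderation, without dim clusters and with 1 cluster per gene, 35 after quantile or cyclic loess normalization, 33 without moderation, 29 with only the arrays compared, 20 without EV replicate 1, 18 without EV replicate 2 and 0 by the methods' t-test after Benjamini-Hochberg. That test gave 0 in every comparison where limma called members, for both thresholds and for EAPP against the other constructs. Some of those fits had fewer arrays or degrees of freedom, and the causes of the losses were not tested.

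Members past the adjusted p without each array in turn numbered 1 to 5 (cytosolic) and 0 to 6 (mitochondrial) with wild type KLF11, 5 to 6 and 7 to 10 with A347S, and 1 to 5 and 3 to 9 with Δ486. Past both thresholds with A347S there were 0 to 1 cytosolic and 0 to 2 mitochondrial genes, and with Δ486 0 to 1 mitochondrial. With EAPP at an unadjusted p there were 1 to 9 and 0 to 1. For EAPP against wild type KLF11, A347S and Δ486 the ranges were 0 to 10, 10 to 16 and 3 to 14. The mitochondrial medians ranged from -0.131 to -0.0928 with wild type KLF11, -0.214 to -0.171 with A347S, -0.192 to -0.0915 with Δ486 and -0.0545 to -0.0043 with EAPP, and the cytosolic median with EAPP from -0.181 to -0.0804.

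By the methods' t-test without adjustment, the counts were 7 (mitochondrial, wild type), 11 (cytosolic, A347S), 5 (mitochondrial, Δ486), 8 and 2 (cytosolic and mitochondrial, EAPP), and 1 for A347S or Δ486 against wild type and for A347S against Δ486. Of all clusters, 23%, 28.6% and 23.4% passed it against EV with wild type, A347S and Δ486. With variance trend and robust moderation they were 7 (mitochondrial, wild type), 11 (cytosolic, A347S) and 17 (EAPP against wild type). Only the arrays compared gave 2 (cytosolic, wild type), 3 (cytosolic, Δ486), 1 (EAPP against wild type) and 0 (EAPP against Δ486). Without moderation 2 mitochondrial genes passed with wild type, without dim clusters 7, and with clusters lacking a symbol 2 cytosolic genes did. An absolute log2 fold change of 1.5, as the methods give it, left 0 genes with A347S. After quantile and cyclic loess normalization 1 mitochondrial gene passed both thresholds with A347S. The mitochondrial medians were then -0.0875 and -0.0818 with wild type KLF11, -0.0882 and -0.0942 with A347S, and -0.120 and -0.118 with Δ486, and the cytosolic median with Δ486 was 0.0623 after quantile normalization. Without GARS1 and KARS1 the cytosolic median with A347S was 0.0017. The single mitochondrial gene at an unadjusted p with EAPP, CARS2, gave 0 without moderation, after either normalization, with clusters lacking a symbol and with the replicate block, and 2 by the methods' t-test.

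The replicate numbers did not pair the arrays, since the correlations of deviations between same-numbered arrays ran from -0.35 to 0.15 and 1 of 10 was above 0.1. With the replicate block, 37 of the 39 calls were kept, and HARS1 with wild type KLF11 and with Δ486 was lost. Precision is limited by the 2 arrays in each group.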
